A study of Mus musculus with 10 samples.

Results

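The cell cycle and DNA replication genes described here are 46 named genes, matched by symbol with no threshold on a measured value. All 46 are among the 19333 genes of the comparison of oligodendrocyte precursor cell (OPC) cultures, and all 46 are in the annotation of 22064 gene symbols used for the sorted immune cells. By role they are 12 genes of S phase and DNA replication, 19 genes of G2 and mitosis, 9 cyclins, cyclin-dependent kinases (CDKs) and an E2F factor of the G1 phase, 2 genes of the Myc family and 4 CDK inhibitors.

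A cell that divides passes through G1, copies its DNA in S phase and separates the copies in mitosis. D-type cyclins with Cdk4 and Cdk6 release E2F factors from the retinoblastoma protein, E2F factors switch on replication genes, and the mitotic genes follow through promoters that carry a CCAAT box and a cell cycle homology region (CHR) bound by the DREAM and MuvB complexes. OPCs are the dividing cells of the oligodendrocyte lineage and divide in response to PDGF. The APC protein takes part in the destruction of beta-catenin, the transcriptional arm of Wnt signalling, and Myc and Ccnd1 are the cell cycle genes most often cited as Wnt targets.

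The series holds 10 mouse RNA sequencing libraries. The OPC cultures were 3 libraries of genotype Olig2-Cre:Apc-fl/fl and 3 of their Apc-fl/fl littermates, labelled as wild type. Both alleles of Apc were floxed in all 6, OPCs were purified by immunopanning, and every culture received PDGFAA, an OPC mitogen, for 3 days. Olig2-Cre acts in cells of the Olig2 lineage, so other cells in a culture would keep Apc. The immune cells were sorted from spinal cords of Pdgfra-CreER:Apc-fl/fl mice at day 18 of experimental autoimmune encephalomyelitis (EAE), a mouse model of multiple sclerosis. They comprised 3 libraries of CD11b+Gr-1+NK1.1+ cells labelled as cytotoxic macrophages and 1 library of CD4+ cells labelled Th1. The mice with EAE carried 1 genotype, so these libraries hold no Apc control. The sources used here give no ages, and nothing in them states whether replicate libraries came from separate animals, so the spread between them may be technical.

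The cell labels were checked against marker genes. In the authors' deposited table for the OPC cultures, all 9 neuron markers had high means, from 3947 to 122255 normalized counts, beside OPC marker means of 802 to 13051. The 7 astrocyte markers had means of 410 to 26753 in the authors' deposited table. The macrophage libraries held 23174908 to 23564215 estimated reads and were led by neutrophil transcripts as well as Lyz2, with Retnlg, a gene of late neutrophils, at 30513 to 31577 TPM (transcript counts corrected for length and scaled to a common sum). The library labelled Th1 held 3051730 estimated reads in 6550 genes, against 13655 to 13739 genes per macrophage library. It had no read of Cd3d, Cd3e, Cd3g, Cd4, Tbx21 or Ifng, while Lck was at 66.3 TPM. Myeloid transcripts were abundant in it, with Lyz2 at 11006 TPM, Camp at 4134 and Retnlg at 2077. Ltf, at 709 against 313 to 316 in the macrophage libraries, and Adgre1, at 81.6 against 7.46 to 7.81, were higher in it. Each myeloid list summed lower in it, the 10 macrophage and microglia markers to 11125 TPM against 23026 to 23256. Secondary granule genes summed to 5395 TPM against 27657 to 28127, and late neutrophil genes to 2167 against 30769 to 31834.5. The 4 genes of neutrophil precursors had no read in it. This library is therefore called here by its label only, and the part of myeloid cells in its cell cycle values was not tested.

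Promoter sequences show what the replication and mitotic genes share beside their function, and 5 stretches are printed because they carry the motif pairs that separate the 2 roles. Each is from RefSeq (GRCm38.p6), read 5′ to 3′ on the gene's own strand and ending at or just before the annotated transcription start. Capitals mark CHR elements (TTTGAA or TTCGAA), the CCAAT box bound by NF-Y (CCAAT) and E2F sites (TTTCCCGC, TTTGGCGC, TTTCGCGC or TTTGCCGC), each in either orientation and merged where matches overlap. Top2a, which untangles DNA before mitosis, lies at chr11:99024190-99024419 (minus strand), Cdk1, the mitotic kinase, at chr10:69352942-69353052 (minus strand), and Cdc20, which starts the exit from mitosis, at chr4:118437353-118437423 (minus strand). The helicase subunits follow, Mcm6 at chr1:128359706-128359825 (minus strand) and Mcm5 at chr8:75109349-75109508 (plus strand).
Top2a: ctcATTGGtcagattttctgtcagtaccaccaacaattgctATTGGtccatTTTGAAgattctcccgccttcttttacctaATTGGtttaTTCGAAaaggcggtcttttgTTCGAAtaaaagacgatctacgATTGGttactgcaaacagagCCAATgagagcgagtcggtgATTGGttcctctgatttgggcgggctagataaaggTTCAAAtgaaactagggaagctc
Cdk1: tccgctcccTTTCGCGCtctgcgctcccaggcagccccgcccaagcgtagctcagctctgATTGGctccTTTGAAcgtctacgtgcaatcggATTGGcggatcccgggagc
Cdc20: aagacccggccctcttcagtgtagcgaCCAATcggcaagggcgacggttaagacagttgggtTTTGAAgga
Mcm6: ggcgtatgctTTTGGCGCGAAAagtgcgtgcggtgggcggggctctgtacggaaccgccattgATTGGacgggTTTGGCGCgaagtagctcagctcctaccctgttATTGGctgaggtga
Mcm5: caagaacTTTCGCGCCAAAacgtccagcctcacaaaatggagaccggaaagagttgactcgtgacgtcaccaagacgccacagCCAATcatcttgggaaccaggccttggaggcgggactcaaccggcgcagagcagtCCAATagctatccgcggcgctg

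The Top2a stretch holds 4 CHR and 6 CCAAT matches, and the stretches of Cdk1 and Cdc20 pair 1 CHR match with 2 and 1 CCAAT matches, with 1 E2F match further upstream at Cdk1. The stretches of Mcm6 and Mcm5 hold no CHR match, but 3 and 2 E2F matches, which overlap in part, beside 2 CCAAT matches each. In windows from 250 bases before to 50 after the start, a CHR match was found for 13 of 16 mitotic genes, for 3 of 11 replication genes and for 21.7% of the 27025 genes with a window. An E2F match was found for 5 of 11 replication genes, for 1 of 16 mitotic genes (Cdk1, in the stretch above) and for 2.6% of all genes. A CCAAT match was found for 15 of 16 mitotic and 9 of 11 replication genes, against 41.1% of all genes, and all 13 mitotic genes with a CHR match also had a CCAAT match, a pair held by 9.65% of all genes. The CHR letters TTTGAA lie inside CTTTGAA, a form of the TCF site of Wnt signalling. A TCF match (CTTTGAA or CTTTGAT) was found for 3 of 16 mitotic genes, for none of 11 replication genes and for 9.88% of all genes. These 3 were among the 13 mitotic genes with a CHR match. Of all genes, 5854 had a CHR match, and 1837 of those also had a TCF match.

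**Figure D1:**
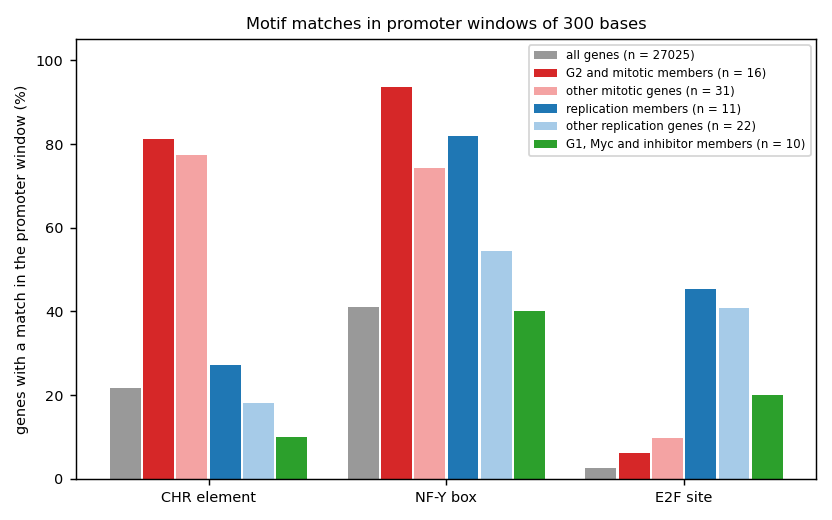
Share of genes (%) with at least 1 match to a CHR element, a CCAAT box (NF-Y) or an E2F site in the 300-base promoter window, for all genes and for each gene list. CHR matches are most frequent in the mitotic members (13 of 16) and the other mitotic genes (24 of 31), and E2F matches in the replication members (5 of 11) and the other replication genes (9 of 22).

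The same split stood in genes of these pathways outside the 46. A CHR match was found for 24 of 31 further mitotic genes and for 4 of 22 further replication genes, and an E2F match for 3 of 31 and 9 of 22. Windows were at hand for 37 members. Aurkb, Mcm4, Foxm1, Ccna2, Ccnd2, Ccnd1, Ccne2, Myc and Cdkn1c had none. A match describes the letters of a window and not a site in use.

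In OPC cultures without Apc, the authors' deposited table called 1 of the 46 genes (adjusted p under 0.05), against a background of 0.548% of all genes in either direction and 0.393% higher. The gene was Cdkn1a, which encodes an inhibitor of cyclin-CDK complexes induced by p53. The other 45 did not pass, although 44 of the 46 log2 fold changes (Apc-deleted over wild type) were above 0 where 50.3% of all genes were. The median over the 46 was 0.57 in the authors' deposited table, beside 0.00 over all genes. All come from the same 6 libraries, so the 44 are not separate observations. Of 8 OPC markers, 2 fell in the authors' deposited table, Gpr17, a gene of committed precursors, at -1.16 (adjusted p 2.14e-10) and Nkx2-2, a factor of the oligodendrocyte lineage, at -1.44 (adjusted p 1.16e-06), while Pdgfra was at 0.37 and did not pass. Over the 8 OPC markers the median was 0.015, with 5 above 0 and 3 below. All 9 neuron markers and 6 of 7 astrocyte markers were below 0 in the authors' deposited table, at medians of -0.08 and -0.06, and none passed. The part of a shift in cell stage or in the mix of cell types in the cell cycle values was not tested.

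The authors' deposited table put Cdkn1a at a log2 fold change of 0.91 (SE 0.19, 95% interval 0.54 to 1.28, adjusted p = 0.000589), which is 1.88-fold. No other CDK inhibitor passed. Cdkn1b, which holds precursors out of the cycle as they differentiate, was at 0.07 (SE 0.14) and Cdkn1c, an imprinted inhibitor of the same family, at -0.03 (SE 0.16) by the authors' deposited table. Cdkn2c, an inhibitor of Cdk4 and Cdk6, was at 0.45 (SE 0.28) by the authors' deposited table. Of 10 markers of macrophages and microglia, Lyz2 and Cd68 rose in the authors' deposited table. Lyz2 was at 4.33 (SE 0.96, 95% interval 2.44 to 6.22), an error wide for its mean count, and Cd68 at 1.54 (SE 0.36). The other 8 did not pass. Among those 8, Adgre1 at 1.87, Tmem119 at 0.87 and Aif1 at 0.40 had the smallest unadjusted p-values in the authors' deposited table. These were 0.00433, 0.00454 and 0.0069. C1qa was at 0.17, while Csf1r at 0.01, Mertk at 0.0015, Cx3cr1 at 0.07 and P2ry12 at -0.21 lay near or below 0 there. Of the 10 markers, 9 were above 0, and the median was 0.28. An unadjusted p under 0.05 with a higher level was found for 5 of the 10, against 2.62% of all genes. Cdkn1a itself was at 31.3 TPM in the sorted macrophage libraries. These came from EAE spinal cord and were led by neutrophil transcripts as well as Lyz2. The OPC cultures have no TPM to set beside that level. The part of macrophages and microglia in the Cdkn1a change was not tested. In bulk cultures, a change in the number of cells of a type and a change in RNA per cell cannot be told apart.

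None of the 12 replication genes passed, and their median log2 fold change by the authors' deposited table was 0.80. In the authors' deposited table they ran from 0.36 (SE 0.24) for Rrm1, the large subunit of ribonucleotide reductase, to 1.04 (SE 0.66) for Cdc6, which loads the helicase at origins. Rrm2, the small subunit of ribonucleotide reductase, was at 1.01 (SE 0.72) by the authors' deposited table. In the authors' deposited table the helicase subunits Mcm2, Mcm3, Mcm4, Mcm5 and Mcm6 lay between 0.72 (Mcm6) and 0.98 (Mcm5) with SEs of 0.57 to 0.73. Mcm7, a subunit of the same ring, was at 0.61 with an SE of 0.24 and had the smallest p of the 12 (0.0108, adjusted 0.699) in the authors' deposited table. Its exons overlap those of Ap4m1 and Cops6 on the opposite strand, and the sources used here do not say whether counting used strand. Cdc45, a partner of the helicase, Pcna, the polymerase clamp, and Tyms, which makes thymidylate, lay at 0.81, 0.77 and 0.80 in the authors' deposited table.

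The 19 mitotic genes were also all above 0 with none passing, and their median in the authors' deposited table was 0.59. The lowest in the authors' deposited table was Kif11, a spindle motor, at 0.17 (SE 0.37), and the highest Foxm1, a transcription factor of the mitotic programme, at 0.93 (SE 0.74). Ttk, a kinase of the spindle checkpoint, was at 0.69 (SE 0.28, p = 0.0124, adjusted 0.776) and Mki67, a marker of cycling cells, at 0.36 (SE 0.18, p = 0.0412) in the authors' deposited table. For Top2a the authors' deposited table gave 0.66 with an SE of 0.49. Ccnb1, the main mitotic cyclin, lay at 0.50 (SE 0.67), its partner Cdk1 at 0.59 (SE 0.65) and Plk1, a kinase of mitotic entry, at 0.46 (SE 0.70) by the authors' deposited table. The authors' deposited table had Aurkb and Birc5, partners in the chromosomal passenger complex, at 0.74 and 0.66. The rest of the 19 (Ccna2, Ccnb2, Aurka, Bub1, Bub1b, Cdc20, Kif23, Cenpe and Cenpf) lay between 0.23 (Ccnb2) and 0.76 (Cdc20) in the authors' deposited table.

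**Figure D2:**
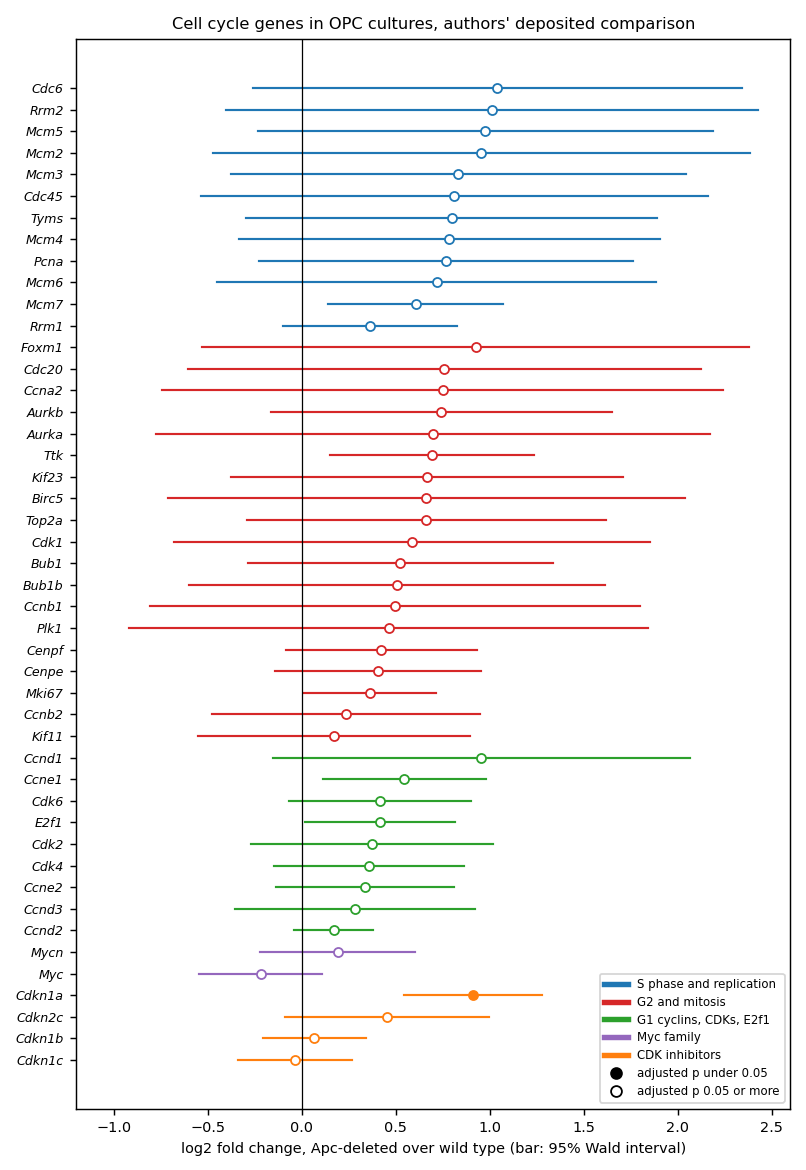
Log2 fold change of each of the 46 genes (Apc-deleted over wild type, authors' deposited table) with its 95% Wald interval, coloured by role, filled where the adjusted p is under 0.05. Cdkn1a is the filled point at 0.91, Myc is at -0.22, and 40 of the 46 intervals include 0.

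By the authors' deposited table, the median of the replication genes was 0.22 above that of the mitotic genes on the log2 scale. Of the 12 replication genes, 11 lay above the mitotic median, and 1 of the 19 mitotic genes lay above the replication median. The genes share libraries, so this difference has no error and no test here. The SE of a single gene was 0.61 in the median for replication and 0.53 for mitosis. It also depended on which genes carry weight. With each gene of the authors' deposited table weighted by its precision the means were 0.64 and 0.47, and among genes with a mean of at least 1000 normalized counts the medians were 0.48 for replication (Mcm7 and Rrm1) and 0.59 for mitosis.

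All 9 G1 genes were above 0, none passed, and their median log2 fold change by the authors' deposited table was 0.37. Ccne1, the cyclin that starts S phase with Cdk2, was at 0.55 (SE 0.22, p = 0.0132, adjusted 0.793) and E2f1, an activating E2F factor, at 0.42 (SE 0.20, p = 0.0409) in the authors' deposited table. The authors' deposited table had the kinases Cdk4, Cdk6 and Cdk2 at 0.36, 0.42 and 0.37, and the cyclins Ccne2 and Ccnd3 at 0.33 and 0.28. Ccnd2 had the narrowest error of the 46, with the authors' deposited table giving 0.17 and an SE of 0.11. Over the 46 genes, the authors' deposited table gave 6 an unadjusted p under 0.05, all higher, where 2.62% of all genes were higher and 3.63% differed in either direction at that p.

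The Wnt-linked genes Myc and Ccnd1 pointed opposite ways and neither passed. Myc was at -0.22 (SE 0.17, 95% interval -0.55 to 0.11, p = 0.189) in the authors' deposited table, which leaves room for a rise of at most 0.11 on the log2 scale at that confidence. Mycn, its relative in neural progenitors, was at 0.19 (SE 0.21) by the authors' deposited table. Ccnd1 was at 0.96 (SE 0.57, 95% interval -0.15 to 2.06, p = 0.0911) in the authors' deposited table. The Wnt feedback gene Axin2 had nearly the same fold change as Ccnd1, 1.01, but its SE was 0.20 and its adjusted p 0.000324 by the authors' deposited table. Lef1 at 1.89, Sp5 at 2.10 and Notum at 4.90 also rose in the authors' deposited table, and these 4 genes were used to set the sign of the table, so they are no independent support of it. Ccnd1 and Axin2 were thus separated by the width of their errors and not by their fold change.

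Of the D-type cyclins, Ccnd2 dominated the OPC cultures. Per kilobase of exon the authors' deposited table gave mean normalized counts of 1180 for Ccnd2, 237 for Ccnd1 and 11.2 for Ccnd3, or 82.6%, 16.6% and 0.785% of the summed level. Exons of all 3 overlap genes on the opposite strand. The abundant D cyclin was therefore the one with the tightest estimate and a small difference, and Ccnd1 the one with a larger difference and a wide error.

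Many of the cell cycle genes had wide errors for their abundance. To compare it between genes of like abundance, each SE was divided by the median SE of the 200 genes nearest in mean count, a ratio near 1 for a typical gene. Of the 46 genes, 22 (47.8%) had a ratio above 3 in the authors' deposited table, against 0.683% of all genes, or 132 genes, of which 16.7% were members. By the authors' deposited table it was highest for Birc5 (5.86), Plk1 (5.44) and Cdk1 (5.39). It was above 3 for 10 of 12 replication genes, 11 of 19 mitotic genes and 1 of 9 G1 genes, Ccnd1 (4.26), and for no Myc family gene or inhibitor. Just outside lay Cenpe, a kinetochore motor, at 2.15, and just inside Tyms at 3.04, with 21 genes of the whole table between them. Outside the 46, the macrophage marker Lyz2 had a ratio of 7.12.

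**Figure D3:**
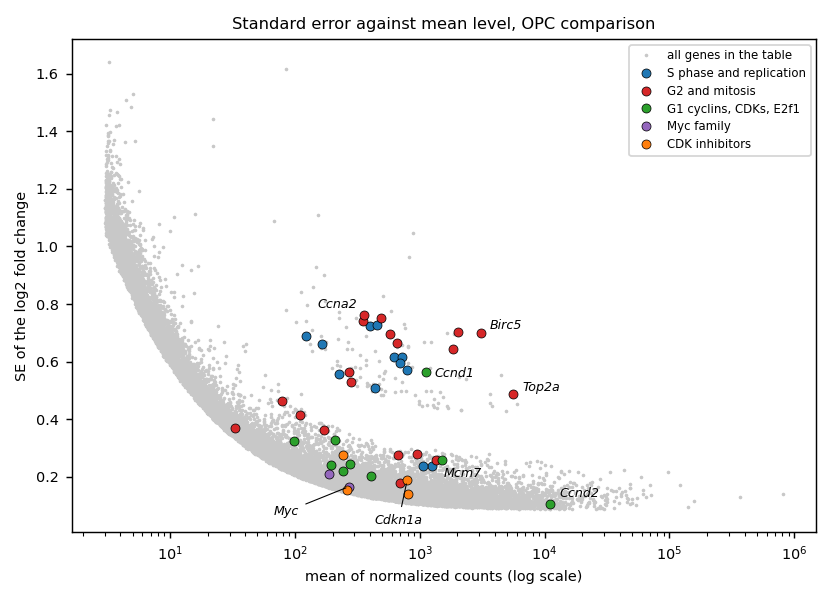
SE of the log2 fold change against the mean of normalized counts (log scale) for all genes (grey) and the 46 genes (coloured by role), both from the authors' deposited table. 22 of the 46, among them Birc5, Top2a, Ccna2 and Ccnd1, lie above the band of genes of like abundance, while Ccnd2, Cdkn1a and Myc lie on it.

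By the authors' deposited table the 22 genes with wide errors were all above 0, with a median log2 fold change of 0.76 and a median SE of 0.65. The 24 with narrower errors in the authors' deposited table had a median of 0.37 and a median SE of 0.24, with 22 above 0. All 6 unadjusted p-values under 0.05 were among them. The sets were split by SE and p rests on the fold change over its SE, so this is no separate observation. Cdkn1a, at 0.91, and Ttk, at 0.69, combined a large fold change with a narrow error. The largest unadjusted p of any called gene of the authors' deposited table was 0.00027, a statistic of 3.64, so a median log2 fold change of 2.38 was needed for a call in the first set and of 0.89 in the second. At this precision, a doubling of Mcm2 (needed 2.66) could not have been called, while a doubling of Mcm7 (needed 0.87) could. Of the 46 intervals in the authors' deposited table, 40 include 0 and 28 include a doubling. The table gives no value per library, so which libraries carry the spread was not tested.

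Further genes of these pathways pointed the same way and none passed in the authors' deposited table. Of 30 other replication genes, 28 were above 0, at a median of 0.57 in the authors' deposited table. Of these, 11 had an unadjusted p under 0.05, where 2.62% of all genes were higher at that p. The smallest p-values were those of the chromatin assembly subunit Chaf1b (0.95, SE 0.31, adjusted p 0.244), the DNA ligase Lig1 (0.57) and the clamp loader subunit Rfc3 (0.46). The median SE ratio of the 30 was 1.35, and 4 exceeded 3. Of 35 other mitotic genes measured, 34 were above 0, 2 with an unadjusted p under 0.05 (Ncapg at 0.71 and Incenp at 0.42 in the authors' deposited table), at a median of 0.45, and 16 had an SE ratio above 3. Of 18 Rb, E2F and DREAM genes, 15 were above 0, 5 with an unadjusted p under 0.05, at a median of 0.26. Of 10 other CDK inhibitors and p53 pathway genes, 7 were above 0 and 2 had an unadjusted p under 0.05, at a median of 0.18. Cdkn2a, a senescence-linked inhibitor locus, was at 1.33 (SE 0.41, p = 0.00119, adjusted 0.154) in the authors' deposited table. Of the p53 pathway genes, the authors' deposited table had Ccng1 at 0.37, Mdm2 at 0.23, Gadd45a at 0.16, Btg2 at 0.15, Trp53 itself at -0.0026 and Sesn1 at -0.06.

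The macrophage libraries held nearly all of the cell cycle genes at levels that hardly differed between them. The 46 genes summed to 427.8, 436.6 and 437.5 TPM, and 33 were at 1 TPM or more on average. The highest was Ccnd3, at 127, 141 and 135 TPM. Mycn had no read in any library. By a chi-square test of counts among the libraries, 3 of 45 genes had an unadjusted p under 0.05. Some genes pass at that p by counting error alone, so this does not show that any of the 3 varied. Over all genes counted, the chi-square divided by its degrees of freedom was 1.28 to 2.44 between pairs of libraries. Counting error alone gives a value near 1. The test among the 3 libraries was run for the 45 genes only, and the value between pairs is another statistic. These values therefore do not compare the cell cycle genes with all genes.

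The 19 mitotic genes summed to 157 ± 2.64 TPM and the 12 replication genes to 62.9 ± 0.59 TPM in the macrophage libraries (SD, n = 3). The ratio was 2.53, 2.46 and 2.48 by library, or 2.49 ± 0.039 (SD, n = 3). A single gene of each group made up much of its sum. Birc5, an inhibitor of apoptosis and passenger protein, was at 82.1, 79.3 and 83.0 TPM and gave 51.6% to 52.7% of the mitotic sum. Pcna was at 30.6, 30.9 and 31.4 TPM and gave 48.8% to 49.4% of the replication sum. Without Birc5 the ratio was 1.19 and without Pcna 4.89, so its size depends on these 2 genes. It also depends on the number of genes summed, 19 against 12. Without both Birc5 and Pcna the ratio was 2.35. Between the medians over genes, which do not grow with the number of genes, it was 1.17.

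Behind Birc5, Ccnb2 was at 17.7 to 19.3 TPM, Ccna2, the S and G2 cyclin, at 8.61 to 8.70, Cdc20 at 5.85 to 7.10, Top2a at 5.79 to 6.23 and Mki67 at 2.49 to 2.74. The lowest mitotic gene was Ttk, at 0.37 to 0.43 TPM. Of the replication genes, Rrm2 at 8.36 to 8.80 TPM and Tyms at 5.64 to 5.81 followed Pcna, while the Mcm genes lay between 0.65 and 3.83 and Cdc6, the lowest, at 0.24 to 0.36. The CDK inhibitors Cdkn1a at 30.5 to 32.2 TPM and Cdkn1b at 14.60 to 14.97 were above all Mcm genes. Genes of neutrophil precursors were present in the same libraries, with Elane at 59.9 to 60.1, Prtn3 at 207 to 223, Ctsg at 11.3 to 12.1 and Mpo at 1.47 ± 0.17 TPM (SD, n = 3), and summed to 280.1 to 295.5 TPM with 4 of 4 detected. The part of such cells in the cell cycle signal was not tested.

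**Figure D4:**
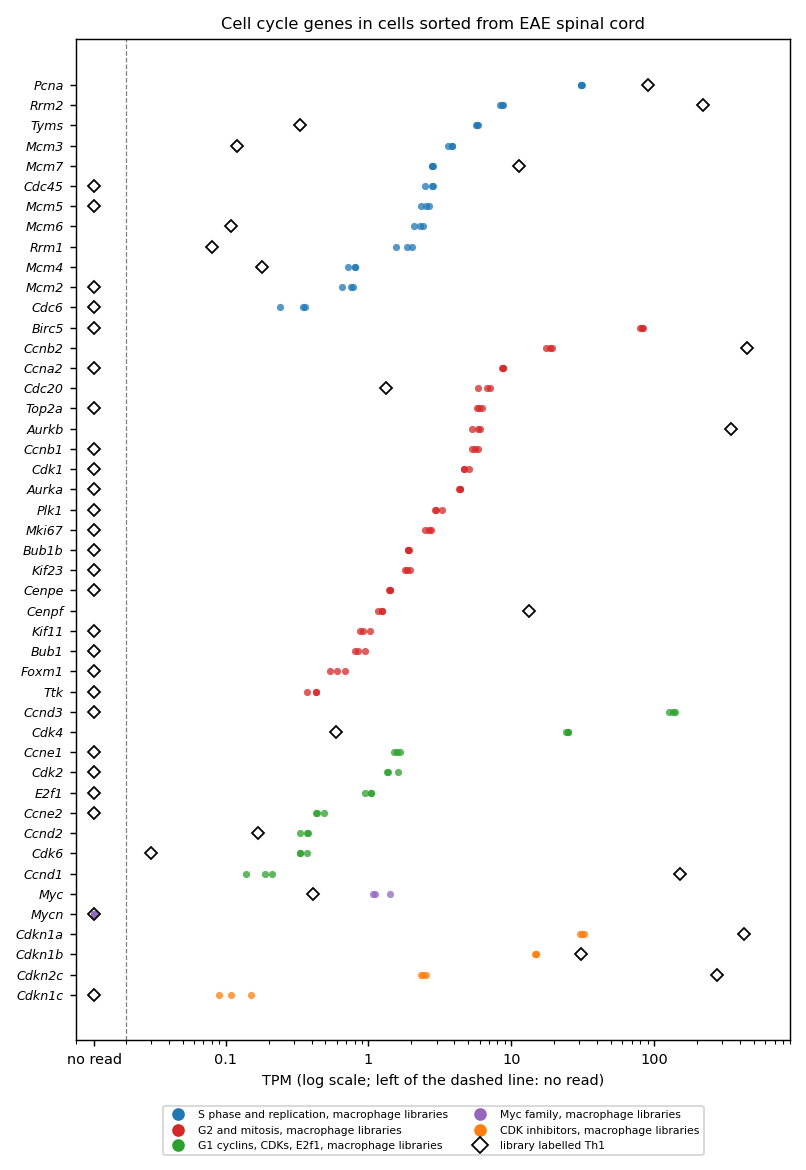
TPM (log scale) of each of the 46 genes in the 3 macrophage libraries (filled circles, coloured by role) and the library labelled Th1 (open diamonds), with genes without a read left of the dashed line. The macrophage libraries lie close together for each gene, while of the 20 diamonds with reads 10 lie to the right of all 3 circles, as for Ccnb2 and Ccnd1, and 10 to the left, as for Cdk4.

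The library labelled Th1 had a few cell cycle genes at high levels and no read of most others. By counts, 12 of the 46 had more than 3 reads, 8 had 1 to 3 and 26 had none. The high ones were Ccnb2 at 444 TPM (2003 reads), Cdkn1a at 425 (2428), Aurkb at 345 (2205), Cdkn2c at 277 (861), Rrm2 at 221 (1452) and Ccnd1 at 152 (1791). Cdk1, the partner of Ccnb2, and Birc5, a partner of Aurkb, had no read, while Rrm1, the partner of Rrm2, had 1 read and Cdk4, a partner of Ccnd1, had 2. Of the 19 mitotic genes 15 had no read, Mki67, Top2a and Plk1 among them. A count of 0 at this depth allows up to 0.983 CPM (counts scaled to library size), and this limit and all counting tests cover counting error only, since no molecular identifiers are stated.

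Low detection was a trait of the whole library. Among genes at 1 TPM or more in the macrophage libraries, 31.7% of all genes and 33.3% of cell cycle genes (11 of 33) had more than 3 reads in it. By edgeR's quasi-likelihood test with Benjamini-Hochberg adjustment, at an adjusted p under 0.05 and 4-fold, 9 of 45 cell cycle genes were higher in this library (20%, background 13.7%) and 30 lower (66.7%, background 54.6%). The spread in that test comes from the macrophage libraries only, and it compares this library, not Th1 cells, with them. The median log2 fold change of all genes was -5.61, and -4.32 with DESeq2 size factors, so the split depends on the scaling. With those size factors 10 were higher (17.55% of all genes) and 18 lower (30.05% of all genes). With DESeq2, which also changed the test and the filter, 10 were higher (16.2% of all genes) and 13 lower (16.6% of all genes). The added higher gene was Cdkn1b, at a log2 fold change of 1.68 by edgeR and 3.19 with the size factors.

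The 9 higher genes were Ccnd1, Cdkn2c, Aurkb, Rrm2, Ccnb2, Cdkn1a, Cenpf, Mcm7 and Pcna. Ccnd1 had the largest log2 fold change, 10.33 (edgeR adjusted p 6.6e-29, 9.89 to 11.84 over the alternatives), from 0.14 to 0.21 TPM in the macrophage libraries to 152 TPM. Cdkn2c followed at 6.87, Aurkb at 6.67, Rrm2 at 5.32 and Ccnb2 at 5.24. All 9 were higher in every alternative except Pcna, which missed the 4-fold threshold (log2 1.78) without the filter on low counts. Of the 30 lower genes, 24 had no read in the library. Taken against 3 reads and the smallest of 3 scalings, Ccnd3 was at least 61.2-fold lower, Birc5 at least 17.4-fold, Top2a at least 8.37-fold, Ccna2 at least 7.68-fold, Mki67 at least 6.93-fold and Cdk1 at least 5.56-fold, while for the other 19 of 25 genes with no read the bound was under 4-fold. For 10 of these it was under 1, which leaves room for an equal or higher level, and 9 of those 10 are among the 30 called lower by edgeR.

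The most abundant D cyclin was another one in each source. Ccnd3 made up 99.57% to 99.63% of D cyclin TPM in the macrophage libraries, Ccnd1 made up 99.9% in the library labelled Th1, and Ccnd2 made up 82.6% of the length-corrected level in the authors' deposited table for the OPC cultures. These 3 shares come from tables normalized separately, and the difference between them has no test across tables. Myc was at 1.11, 1.07 and 1.42 TPM in the macrophage libraries and at 0.41 TPM, 3 reads, in the library labelled Th1.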

How the data were processed

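The 10 libraries were mapped to GRCm38 per the submitters' processing notes, with an aligner, counter and strand setting not given in the sources used here. For the OPC cultures the authors deposited 1 comparison table. Per the file headers it holds a mean of normalized counts (a signal per gene over the libraries), its log2 fold change, an SE, a statistic (a score, the deposited log2 fold change over its SE), a p-value and its adjusted form. It names no numerator, so the sign was set by Notum, Sp5, Lef1 and Axin2. It holds no values per library, so the authors' tests were used as deposited. The immune files hold TPM, FPKM and estimated counts per gene computed by the authors, per the file headers. Blanks were taken as 0 and counts rounded. 4 columns of normalized counts were not used. The macrophage column codes match no label, so those columns carry a group but no replicate number.

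Counts of the Th1 library were set against those of the macrophage libraries with edgeR 4.0.16 in R 4.3.3 (quasi-likelihood test, TMM, filterByExpr, Benjamini-Hochberg over all genes tested). The procedure was tested on simulated data in which most genes did not differ. In the comparison itself the median log2 fold change of all genes was -5.61, a setting that the simulated data do not cover. Alternatives were DESeq2 1.42.0, its size factors, no filter and each macrophage library left out. Fold bounds for genes without a read take 3 reads in that library as the floor, under CPM, TMM and size factors. Exon lengths and overlaps were taken from GENCODE M21, and promoter windows from RefSeq. Every gene of the group is accounted for. Full values were given for the highest and lowest per role, for those with an unadjusted p under 0.05, and for Myc, Mycn and Ccnd1, and from other lists for at most the 3 smallest p-values. The 46 genes were matched by symbol alone, but these genes and all lists were chosen with earlier results of these data known.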

Additional observations from a re-analysis of the deposited data

How the results depend on the processing

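The call on Cdkn1a held when p-values were adjusted again over genes with a mean of at least 10 or 100 normalized counts. The macrophage ratio of mitotic to replication TPM was 2.20 without Ccna2, Foxm1, Mki67 and Top2a, 1.19 without Birc5, 4.89 without Pcna, 2.35 without both and 1.17 as a ratio of medians over genes, the last 4 chosen after seeing the data. Leaving out each macrophage library gave 2.467 to 2.504. For the library labelled Th1, edgeR called 39 cell cycle genes and DESeq2 23, of which 22 were shared in the same direction, and leaving out each macrophage library gave 38 to 39. Directions reversed for genes of few reads in that library: Mcm4 to 0.024 with size factors, Ccnd2 to 0.95 with size factors and 0.79 with DESeq2, Myc to 0.61 and 0.45, and Cdkn1c to 0.12 with DESeq2. The cause was not tested. No paired analysis was possible because the OPC table has no values per library and the macrophage column codes carry no replicate number. Depth limits the library labelled Th1, where 3 reads are 0.983 CPM, and the precision behind the OPC table cannot be split by library.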

Other observations

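Other genes of the same pathways gave further values in the sorted cells. In the macrophage libraries the highest of 36 other mitotic genes were Cks2, a CDK subunit, at 229 ± 5.32 TPM, Hmgb2, a chromatin protein, at 182 ± 5.02 TPM and Ube2c, which tags cyclins for destruction, at 88.3 ± 2.07 TPM (SD, n = 3). Of 30 other replication genes the highest was Gmnn, which blocks a repeat of replication, at 22.9 ± 0.54 TPM (SD, n = 3). The INK4 inhibitor Cdkn2d was at 112 ± 3.10 TPM and Btg2, an antiproliferative gene, at 104 ± 0.58 TPM (SD, n = 3). In the library labelled Th1, Cks2 was at 712 TPM, Gins1, a helicase partner, at 581, Tacc3, a spindle gene, at 494, Exo1, an exonuclease, at 433 and Sesn1, a p53 target, at 397, while 25 of the 36 other mitotic and 16 of the 30 other replication genes had no read. These genes were chosen after their values were seen, and no comparison between them was tested.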
